A study of Rattus norvegicus with 6 samples.

Results

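The prolactin, growth hormone and serotonin axis of rat islets was read here as the accessible chromatin sites (ACS) whose nearest gene is *Prlr*, *Ghr*, *Jak2*, *Stat5a*, *Stat5b*, *Socs2*, *Cish*, *Tph1* or *Tph2*. All ACS that the deposited table lists with these 9 gene symbols were taken, which gave 92 of 101603 distinct ACS. Accessibility was measured by ATAC-seq, in which the Tn5 transposase inserts adapters into open chromatin, in pancreatic islets of untreated rats. The adult group held 3 libraries (Adult replicates 4, 5 and 6), each from the islets of a male rat of about 90 days. The P10 group held 3 libraries (P10 replicates 1, 2 and 3), each from a litter of male and female pups aged 10 days whose islets were pooled. Digestion differed too: by the study's methods P10 pancreases were shaken by hand in collagenase, while in adults it was injected into the pancreatic duct. Age, sex, pooling and digestion therefore differ together between the groups and cannot be told apart. The islets were hand-picked and dissociated, so other cells of the pancreas may be present. In such bulk samples, fewer cells of a type and less accessibility per cell also cannot be told apart.

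Prolactin and growth hormone bind receptors of the cytokine family, PRLR and GHR, which have no enzyme activity and signal through the kinase JAK2. JAK2 phosphorylates the transcription factors STAT5A and STAT5B, which enter the nucleus and bind DNA, and the STAT5 targets SOCS2 and CISH then act back on the receptors as inhibitors. In the islet this pathway is best known from pregnancy, when lactogenic hormones act on PRLR of beta cells, drive their growth and induce *Tph1*. TPH1 carries out the rate-limiting step of serotonin synthesis outside the brain, and its paralog TPH2 does so in neurons.

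*Cish* and *Tph1* carry the features of sequence that the results below refer to, so the bases directly before their gene starts are shown, with those of *Tph2* for comparison. The sequences are those of RefSeq on the build GRCr8, each the 250 bases before the start and written 5′ to 3′ on the strand of the gene. The deposited sites are on the older build Rn5, and the windows were not placed among them. In the *Cish* promoter (chr8:116850719-116850968, plus strand) capitals mark TTCNNNGAA, the palindromic motif that STAT5 binds. In the *Tph1* promoter (chr1:106314629-106314878, minus strand) capitals mark CCAAT, here found on the opposite strand and so printed as ATTGG. The *Tph2* promoter (chr7:52675640-52675889, minus strand) holds neither motif and has no capitals.
Cish: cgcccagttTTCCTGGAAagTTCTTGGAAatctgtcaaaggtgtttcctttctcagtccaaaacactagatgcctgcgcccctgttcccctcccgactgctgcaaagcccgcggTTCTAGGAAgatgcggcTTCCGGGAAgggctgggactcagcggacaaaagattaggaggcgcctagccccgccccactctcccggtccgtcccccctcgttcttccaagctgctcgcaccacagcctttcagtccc
Tph1: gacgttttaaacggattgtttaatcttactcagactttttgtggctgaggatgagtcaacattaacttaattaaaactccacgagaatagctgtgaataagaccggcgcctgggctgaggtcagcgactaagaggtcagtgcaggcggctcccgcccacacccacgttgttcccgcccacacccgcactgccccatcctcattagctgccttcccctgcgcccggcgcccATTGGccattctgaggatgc
Tph2: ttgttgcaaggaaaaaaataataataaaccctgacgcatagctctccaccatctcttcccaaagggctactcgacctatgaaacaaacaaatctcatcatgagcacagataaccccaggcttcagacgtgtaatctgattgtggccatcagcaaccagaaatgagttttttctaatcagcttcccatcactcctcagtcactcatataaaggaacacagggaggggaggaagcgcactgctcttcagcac

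RefSeq held promoters for 8 of the 9 genes, 2 of them for *Prlr*. The STAT5 motif was searched in 33469 rat promoters of this length, and 7.67% of them held it at least 1 time. Among the 9 promoters of these genes it stood 4 times in *Cish* and 1 time in the downstream promoter of *Prlr*. Only 2 of the 33469 promoters held 4 or more matches. CCAAT, on either strand, stood in *Tph1* and *Ghr* and in 34.0% of all promoters. The GC content was 59.2% for *Cish*, 54.4% for *Tph1* and 44.8% for *Tph2*, with a median of 51.2% over all promoters. These matches are descriptions of letters in a window and do not show that a factor binds there.

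The 92 ACS were spread unevenly over the 9 genes. *Prlr* had 26, *Tph2* 16, *Ghr* 15, *Tph1* 9, *Jak2* 8, *Socs2* 7, *Stat5b* 5, and *Stat5a* and *Cish* 3 each. By the deposited annotation 8 were of the TSS class (at the transcription start site), 11 were proximal and 73 distal. The nearest gene is a label of position, and whether an ACS acts on that gene was not tested. Counts are whole numbers of Tn5 integrations per ACS, and the 6 libraries held between 7916919 and 21168463 of them over all ACS. The P10 libraries had more integrations than the adult ones, and values are given as CPM, the integrations in an ACS scaled to those in all ACS of the library with TMM factors. The median of the mean counts was 56.6 per ACS for these genes and 64.8 over all ACS, and 16 of the 92 had a mean under 20, of which 2 were called.

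Of the 92 ACS, 9 were called more accessible in adult islets (Up) and 8 more accessible in P10 islets (Down), while 75 were not called. An ACS was called with edgeR's quasi-likelihood test at p under 0.05 and a Benjamini-Hochberg FDR under 0.2 over all ACS. The 9 Up ACS were 9.78% of the set, where 12.3% of all ACS were Up. The 8 Down ACS were 8.70%, where 6.63% of all were Down. The median log2 fold change, adult over P10, was -0.029 for the set and -0.0076 for all ACS. For the axis as a whole both shares were thus near the background. At 14 ACS the lowest adult library exceeded the highest P10 library (13.8% of all ACS had this order), and at 16 the order was opposite (10.9% of all). Without Adult replicate 6 or without P10 replicate 2 the Down calls numbered 3, and without P10 replicate 3 they numbered 5. When libraries were scaled by their column sums alone, which moved the median of all ACS to -0.10, 9 were Up and 12 Down, beside 10447 Up and 10732 Down over all ACS in place of 12504 and 6738. With the total reads of each library as library sizes, which moved that median to -0.84, 0 were Up and 61 Down.

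The calls are given next by role. At the 2 receptor genes 6 of 41 ACS were Up and 3 Down, and at the 2 tryptophan hydroxylase genes 3 of 25 were Up and 1 Down. At *Jak2* and the 2 STAT5 genes 0 of 16 were Up and 4 were Down, and at the 2 inhibitor genes 0 of 10 were called. Over all ACS 12.3% were Up and 6.63% Down. By class, 1 of the 8 TSS ACS was Up and 0 were Down, where 2.73% of all TSS ACS were Up and 7.87% Down. Of the 11 proximal ACS 0 were Up and 1 was Down (11.2% and 6.71% of all proximal ACS), and of the 73 distal ACS 8 were Up and 7 Down (13.8% and 6.45% of all distal ACS). Whether the shares differ between roles was not tested.

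**Figure D1:**
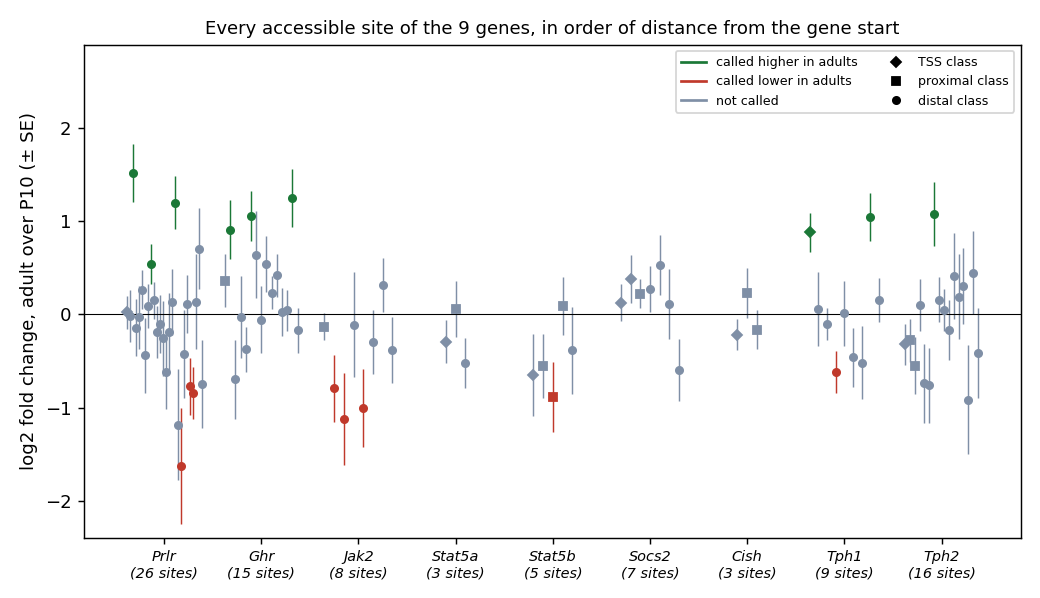
Log2 fold change (adult over P10, y axis) of each of the 92 ACS with its standard error, grouped by gene on the x axis and ordered within a gene by distance from its start. Green marks Up, red marks Down and grey marks uncalled ACS, and diamonds, squares and circles are the TSS, proximal and distal classes. *Prlr*, *Ghr*, *Tph1* and *Tph2* hold the Up calls and *Jak2* has 3 Down calls and 0 Up calls. Over all ACS 12.3% were Up and 6.63% Down.

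*Tph1*, the enzyme of peripheral serotonin synthesis, was the gene of the axis whose start was called, and its start was more accessible in adults. The ACS over the gene start (chr1:103773903-103774443) had 40.1, 28.4 and 21.4 CPM in Adult replicates 4, 5 and 6 and 17.2, 17.5 and 14.2 in P10 replicates 1, 2 and 3. All adult libraries lay above all P10 libraries, although the adult ones spread widely. The log2 fold change was 0.88 (SE 0.21, FDR 0.0062, edgeR quasi-likelihood test), and it was called whichever library was left out. A distal ACS 101.8 kb from the start, past the 3′ end of the gene (chr1:103671902-103672296), also rose. It had 10.5, 12.9 and 7.86 CPM in the adults and 6.09, 4.92 and 4.07 at P10, a log2 fold change of 1.05 (SE 0.26, FDR 0.0091), and was called without any of the 6 libraries.

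In the other direction, the *Tph1* ACS 37.8 kb upstream (chr1:103811914-103812396) fell with age. It had 8.49, 7.79 and 7.22 CPM in the adults and 12.4, 11.4 and 12.4 at P10, so the groups were far apart and narrow. The log2 fold change was -0.62 (SE 0.23, FDR 0.0900), and without Adult replicate 6 it was -0.57 with an FDR of 0.219, which ended the call. The ACS of *Tph1* with the most counts, 31.8 kb from the start and just past the end of the gene, had 30.9, 30.9 and 23.3 CPM in the adults and 31.6, 31.1 and 28.8 at P10. This large ACS gave -0.10 (SE 0.17, FDR 0.815) and was not called. The other 5 uncalled ACS of the gene had log2 fold changes between -0.52 and 0.15.

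*Tph1* is also made by mast cells, so markers of that cell type are given beside it. Of 5 mast cell markers (*Kit*, *Cpa3*, *Mcpt1*, *Tpsb2*, *Fcer1a*) 3 had an ACS and *Tpsb2* and *Fcer1a* had none. Their 32 ACS summed to between 351 and 387 CPM in the adults and between 277 and 365 at P10. Of these 32 ACS 9 were Up and 1 Down, where 12.3% of all ACS were Up and 6.63% Down. Among the 3 markers with an ACS *Kit*, which other cells express too, had the only TSS ACS. It had 33.1 to 36.5 CPM in the adults and 29.6 to 34.8 at P10. The part of mast cells in the *Tph1* result was not tested.

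At *Tph2*, the neuronal paralog, the start was not called. Its TSS ACS (chr7:58157615-58158093) had 10.7, 9.54 and 9.67 CPM in the adults and 12.7, 11.2 and 13.4 at P10. Here the highest adult library was below the lowest P10 library, but the log2 fold change of -0.32 (SE 0.22, FDR 0.442) was not called. Of its 16 ACS 1 was called, 43.6 kb upstream (chr7:58201499-58201831), which was Up. This ACS had 7.41, 2.73 and 4.64 CPM in the adults and 2.60, 1.85 and 2.48 at P10, so Adult replicate 5 stood close to the P10 libraries. The log2 fold change was 1.08 (SE 0.35, FDR 0.0463), but 0.64 (FDR 0.379) without Adult replicate 4 and 0.93 (FDR 0.202) without P10 replicate 2, neither of them called. The other 15 ACS ranged from -0.92 to 0.45. Without Adult replicate 4, 3 ACS inside the gene were called Down, at 7.8 kb (-0.84, FDR 0.169), 20.5 kb (-1.17, FDR 0.170) and 34.4 kb (-1.27, FDR 0.107) from the start.

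At the growth hormone receptor gene *Ghr*, as at *Jak2*, *Stat5b* and *Tph2*, all calls had a single direction. Of the 15 *Ghr* ACS 3, all distal, were Up and 0 Down, where 12.3% of all ACS were Up and 6.63% Down. The first, 133.1 kb upstream (chr2:72479248-72479613), had 10.0, 6.04 and 7.99 CPM in the adults and 4.97, 3.07 and 1.96 at P10. With a log2 fold change of 1.26 (SE 0.31, FDR 0.0095) it rose, and its groups did not overlap. The next, inside the gene and 70.0 kb from the start (chr2:72275716-72276134), had 8.04, 11.2 and 10.7 CPM in the adults and 6.55, 4.07 and 3.65 at P10. It rose by 1.06 (SE 0.27, FDR 0.0115). Both were called without any of the 6 libraries. The last, 13.7 kb inside (chr2:72332143-72332416), had 5.96, 5.55 and 5.03 CPM in the adults, which were close together, and 4.42, 2.0 and 2.27 at P10. Its log2 fold change was 0.91 (SE 0.32, FDR 0.0740), and the call was lost without P10 replicate 2 (0.70, FDR 0.337) or P10 replicate 3 (0.74, FDR 0.286).

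No ACS of *Ghr* was of the TSS class. Its highest ACS, 94.9 kb upstream (chr2:72441039-72441576), had 58.9, 41.5 and 43.4 CPM in the adults and 49.3, 37.4 and 35.6 at P10. The groups overlapped and the log2 fold change of 0.23 (SE 0.18, FDR 0.499) was not called. It stood among 6 ACS between 80.2 and 99.6 kb upstream, of which 0 were called. Without P10 replicate 1, however, the ACS at 97.0 kb was Up (0.55, FDR 0.175) and the ACS at 14.8 kb upstream was Down (-1.02, FDR 0.162).

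At *Prlr*, the prolactin receptor, the gene start was not called while single ACS on both sides of it were. The TSS ACS (chr2:84553747-84555043) had 43.9, 28.1 and 37.3 CPM in the adults and 34.1, 33.7 and 39.6 at P10. The P10 values lay within the adult range, and the log2 fold change was 0.026 (SE 0.18, FDR 0.961), with values between -0.13 and 0.18 when libraries were left out in turn. The largest rise of the axis lay 25.0 kb inside the gene (chr2:84529488-84529719). This ACS had 5.69, 4.48 and 6.70 CPM in the adults and 2.0, 2.28 and 1.59 at P10, without overlap. It rose by 1.52 (SE 0.31, FDR 0.0020).

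Another *Prlr* ACS, 299.7 kb upstream (chr2:84854408-84854919), had 8.58, 6.14 and 8.25 CPM in the adults and 3.30, 2.43 and 4.18 at P10. It rose by 1.20 (SE 0.28, FDR 0.0066), and like the ACS at 25.0 kb it was called without any of the 6 libraries. The last Up ACS of *Prlr*, 47.9 kb inside (chr2:84506360-84506802), had 23.0, 16.1 and 18.3 CPM in the adults and 14.5, 10.8 and 14.1 at P10. The groups did not overlap but came close, and the log2 fold change was 0.54 (SE 0.21, FDR 0.115). This call was lost without Adult replicate 4 (0.38, FDR 0.390), P10 replicate 2 (0.40, FDR 0.455) or P10 replicate 3 (0.58, FDR 0.201).

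Of the 11 *Prlr* ACS within 100 kb of the gene start 2 were Up and 0 Down, where 11.5% of all ACS this near to their gene were Up and 6.9% Down. Of the 9 ACS beyond 500 kb upstream 0 were Up and 3 were Down, where 11.7% of all ACS this far away were Up and 6.13% Down. The median log2 fold change of the 9 was -0.75. Whether calls differ with distance was not tested, and each of these 3 Down calls was lost with a library left out and at FDR under 0.05. The ACS at 794.0 kb (chr2:85348692-85349249) had 3.34, 7.99 and 4.90 CPM in the adults and 8.04, 10.5 and 10.7 at P10. It fell by 0.84 (SE 0.28, FDR 0.0591), and without Adult replicate 4 the value was -0.58 (FDR 0.277) and not called. The ACS at 701.4 kb (chr2:85256049-85256435) had 3.16, 3.70 and 2.19 CPM in the adults and 4.74, 6.06 and 4.92 at P10. Its log2 fold change of -0.77 (SE 0.30, FDR 0.119) lost the call without Adult replicate 6 (-0.61, FDR 0.340) or P10 replicate 2 (-0.68, FDR 0.359).

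The remaining Down ACS of *Prlr*, at 523.9 kb (chr2:85078532-85078733), was very sparse, with 5, 3 and 1 integrations in the adult libraries and 14, 19 and 18 at P10. Its log2 fold change of -1.63 (SE 0.62, FDR 0.0776) lost the call without Adult replicate 6 (-1.35, FDR 0.228) or P10 replicate 2 (-1.38, FDR 0.294), and DESeq2 gave it no adjusted p. Of the 9 far ACS 6 had a mean count under 20. The uncalled ACS of *Prlr* ranged from -1.19 to 0.71, and the ACS at 285.6 kb upstream was Down without P10 replicate 1 (-1.0, FDR 0.0951), as was the ACS at 1080.7 kb without Adult replicate 5 (-1.34, FDR 0.127). The deposited table lists *Prlr* on the minus strand of Rn5 and RefSeq places it on the plus strand of GRCr8, so these distances hold for the layout of Rn5.

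**Figure D2:**
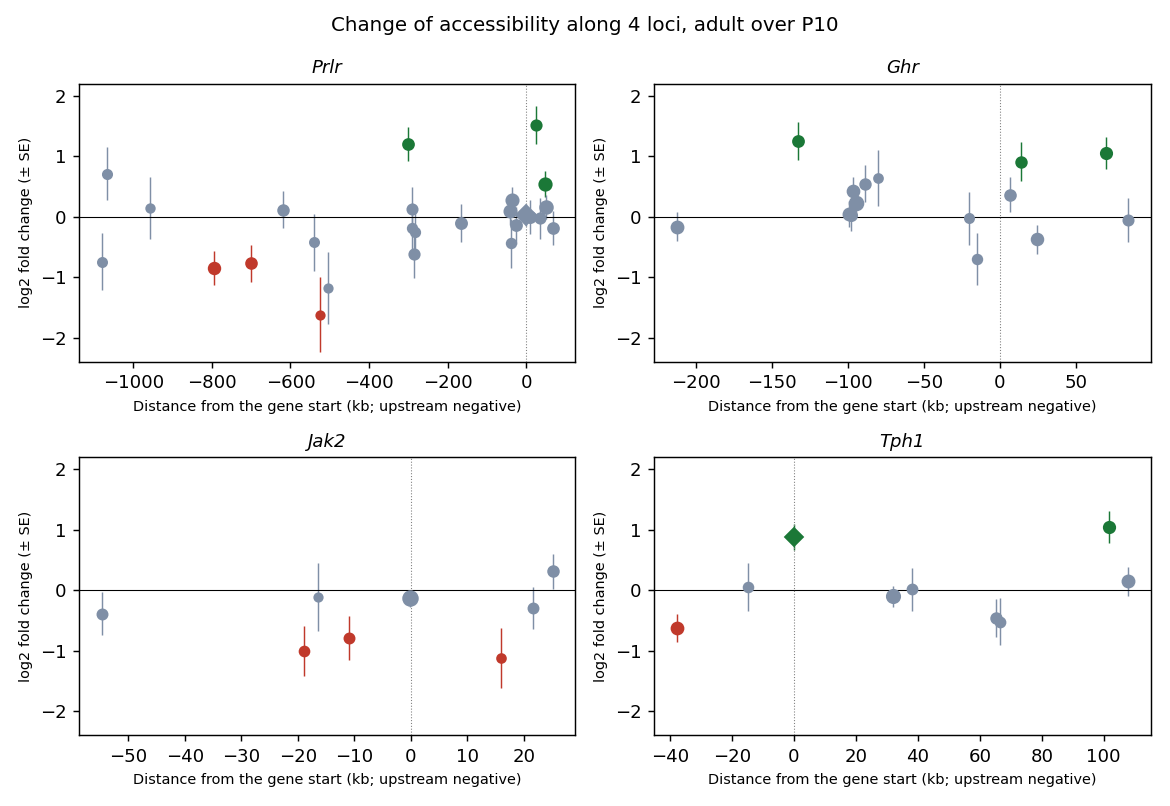
Log2 fold change (adult over P10, y axis, with standard error) against distance from the gene start in kb (x axis, upstream negative) for the ACS of *Prlr*, *Ghr*, *Jak2* and *Tph1*; green is Up, red is Down, grey is uncalled, a diamond is a TSS ACS and larger points have higher mean counts. At *Prlr* the 3 Down ACS lie between 523.9 and 794.0 kb upstream, and at *Ghr* the 3 Up ACS lie on both sides of the start.

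*Jak2*, the kinase that both receptors share, had 3 of 8 ACS Down and 0 Up, where 6.63% of all ACS were Down and 12.3% Up. Each of the 3 was sparse and each call hung on particular libraries. The ACS 19.0 kb upstream (chr1:254627458-254627740) had 0.63, 1.75 and 1.55 CPM in the adults and 2.05, 2.43 and 3.33 at P10, a log2 fold change of -1.01 (SE 0.42, FDR 0.139). It was not called without Adult replicate 4 (-0.65, FDR 0.434), P10 replicate 2 (-1.06, FDR 0.245) or P10 replicate 3 (-0.79, FDR 0.426). The ACS 11.0 kb upstream (chr1:254635460-254635723) had 1.90, 1.27 and 2.19 CPM in the adults and 3.30, 2.64 and 3.22 at P10, a log2 fold change of -0.79 (SE 0.36, FDR 0.192). It was called in 1 of the 6 fits with a library left out, the fit without Adult replicate 6, and in the others the FDR lay between 0.259 (without Adult replicate 4) and 0.386 (without Adult replicate 5). Inside the gene, 15.9 kb from the start (chr1:254662582-254662791), another ACS had 0.45, 0.68 and 0.52 CPM in the adults and 1.16, 1.5 and 1.0 at P10, a log2 fold change of -1.12 (SE 0.50, FDR 0.162). It too was called in 1 of the 6 fits, the fit without Adult replicate 5, and the FDR of the others lay between 0.213 (without P10 replicate 1) and 0.421 (without P10 replicate 2). DESeq2 did not call the ACS at 11.0 kb (FDR 0.217) and gave no adjusted p for the ACS at 15.9 kb, which limma voom did not call either (FDR 0.229).

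The ACS with the most counts of the whole axis stood at the start of *Jak2*. Its edge lay 86 bp before the gene start (chr1:254645684-254646613), and the deposited annotation classes it as proximal. It had 81.7, 81.7 and 78.6 CPM in the adults and 88.3, 92.1 and 84.9 at P10. The groups did not overlap, but the difference was small, with a log2 fold change of -0.13 (SE 0.14, FDR 0.671), and was not called. The other 4 uncalled ACS of *Jak2* ranged from -0.38 to 0.31.

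*Stat5a* and *Stat5b* lie side by side on chromosome 10 and encode the factors that JAK2 activates. The TSS ACS of *Stat5a* (chr10:88558560-88559110) had 16.4, 14.3 and 9.28 CPM in the adults and 20.3, 13.8 and 15 at P10, and its log2 fold change of -0.29 (SE 0.23, FDR 0.520) was not called. At *Stat5b* the TSS ACS, 465 bp before the start (chr10:88507353-88507636), was sparse, with 0.72, 1.27 and 0.77 CPM in the adults and 1.53, 1.64 and 1.22 at P10. It gave -0.65 (SE 0.44, FDR 0.432), also uncalled. The deposited annotation puts the Rn5 starts of *Stat5b* and *Stat5a* at 88506888 and 88558936. On GRCr8 their promoter windows lie much nearer to each other, at 86275953-86276202 and 86285609-86285858. The class and distances of the *Stat5b* ACS therefore hold for the layout of Rn5. Where the GRCr8 start lies among these ACS was not examined. The called ACS of the pair was the proximal one 5.7 kb before *Stat5b* (chr10:88512568-88512805), which was Down. It had 1.63, 1.66 and 1.16 CPM in the adults and 3.25, 2.92 and 2.17 at P10, without overlap, and a log2 fold change of -0.89 (SE 0.38, FDR 0.149). The call was lost without Adult replicate 4 (FDR 0.211), Adult replicate 6 (FDR 0.338), P10 replicate 1 (FDR 0.313) or P10 replicate 2 (FDR 0.327).

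The ACS of *Stat5b* with the most counts, 8.6 kb before its start, had 6.33, 7.79 and 3.35 CPM in the adults and 7.81, 3.92 and 4.76 at P10. Its log2 fold change was 0.088 (SE 0.31, FDR 0.919), and with column sums as library sizes it was -0.0022. Within the gene, 2.8 kb from the start, 1 library stood high, with 9.90 CPM in P10 replicate 1 against 3.28 and 4.33 in the other P10 libraries and 3.09 to 4.52 in the adults. This ACS gave -0.55 (FDR 0.383), and -0.84 (FDR 0.196), a Down call, without P10 replicate 2. The *Stat5a* ACS 32.3 kb from the start, past the gene, had 4.97, 5.06 and 3.87 CPM in the adults and 7.53, 5.85 and 6.66 at P10 and was not called (-0.52, FDR 0.268). With column sums as library sizes it was Down (-0.62, FDR 0.157).

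At the genes of the inhibitors edgeR called 0 of 10 ACS, and 0 had an unadjusted p under 0.05. *Cish*, whose promoter holds the 4 STAT5 motifs shown above, had its TSS ACS over the gene start (chr8:115410236-115411298). It had 30.3, 28.9 and 27.6 CPM in the adults and 37.1, 33.5 and 30.3 at P10. The groups did not overlap, with the highest adult value just under the lowest P10 value, and the log2 fold change was -0.22 (SE 0.17, FDR 0.517). The other 2 *Cish* ACS, past the gene, gave 0.23 and -0.16.

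*Socs2*, which restrains growth hormone signalling, had 2 TSS ACS and a large proximal one. The ACS 216 bp before the start (chr7:36560839-36561545) had 21.6, 19.1 and 20.8 CPM in the adults and 23.5, 14.8 and 17.8 at P10 (log2 fold change 0.13, SE 0.20, FDR 0.792). The ACS 454 bp inside (chr7:36559871-36560169) had 7.77, 6.23 and 6.70 CPM in the adults and 5.25, 5.28 and 5.39 at P10 (0.38, SE 0.26, FDR 0.436). In the latter the adult libraries lay above the P10 ones, and so they did in the ACS 1.3 kb before the start (chr7:36561935-36563089), with 52.8, 49.6 and 53.0 CPM against 47.3, 40.4 and 45.2 (0.22, SE 0.15, FDR 0.453). None of these was called. The other 4 ACS of *Socs2* ranged from -0.60 to 0.53, and the lowest of them, 27.0 kb upstream, was Down without Adult replicate 5 (-0.95, FDR 0.126).

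**Figure D3:**
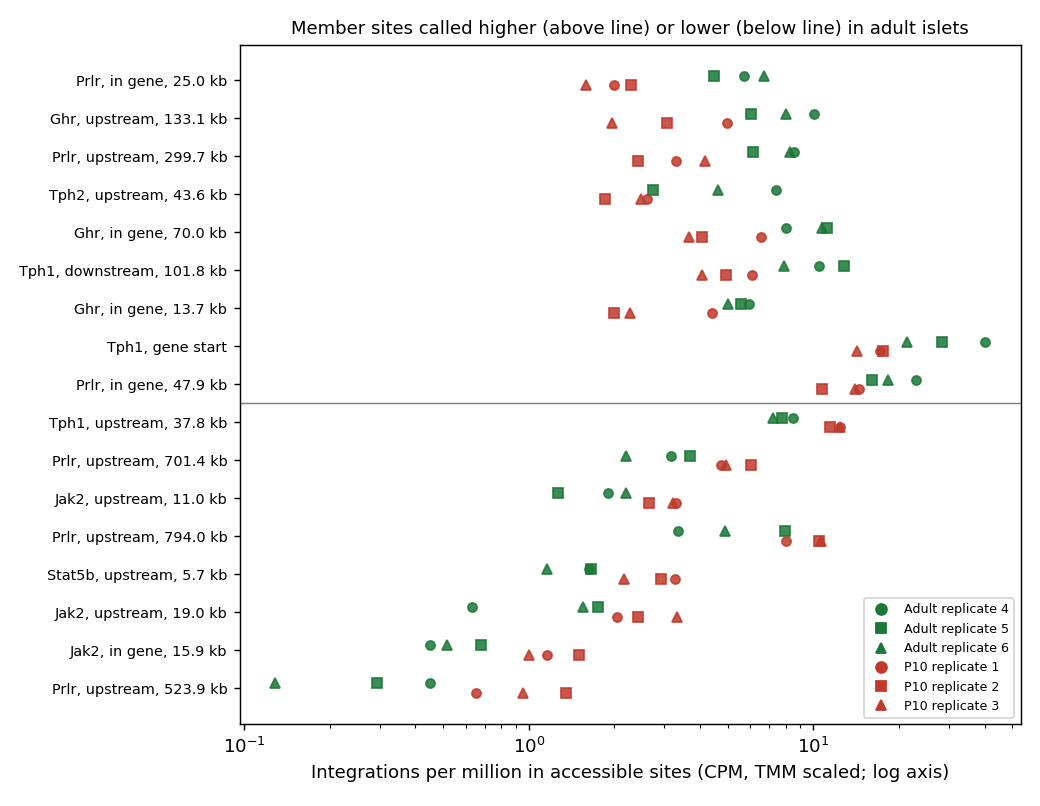
Accessibility (CPM, log axis) of the 17 called ACS in each library, named by gene and distance from the gene start; green points are adult, red points are P10, and the shape gives the replicate. Above the line lie the 9 Up ACS and below it the 8 Down ACS. In each of the 17 the groups do not overlap, but the 17 were picked by their calls on these same libraries.

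Per kilobase of ACS, the starts of these genes differed widely in level. The adult mean was 86.7 ± 1.90 CPM per kb (SD, n = 3) at the *Jak2* ACS next to the start and 55.4 ± 17.5 at *Tph1*. It was 29.0 ± 1.81 at the *Socs2* ACS 216 bp before the start, 28.1 ± 6.11 at *Prlr*, 27.2 ± 1.26 at *Cish*, 24.2 ± 6.61 at *Stat5a*, 20.8 ± 1.28 at *Tph2* and 3.24 ± 1.06 at *Stat5b*. From *Socs2* to *Tph2*, neighbours in this order lay within the larger of their SDs, whereas *Jak2* and *Tph1* at the top and *Stat5b* at the bottom lay further from their neighbours. At P10 the same ACS had 95.1, 30.2, 26.4, 27.6, 31.6, 29.7, 26.0 and 5.15 CPM per kb. At P10 *Cish*, *Tph1*, *Stat5a*, *Prlr*, *Socs2* and *Tph2* lay between 26.0 and 31.6. The *Stat5b* ACS lay 465 bp before the start listed on Rn5. Whether its low level holds for the *Stat5b* start on GRCr8 was not examined. The distal ACS 94.9 kb before *Ghr* had 89.1 CPM per kb in the adults and 75.8 at P10, on the scale of the *Jak2* start.

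Summed over all ACS of a gene, 0 of the 9 genes were called, in either direction, by edgeR's quasi-likelihood test, by DESeq2 or by limma voom, and 0 had an unadjusted edgeR p under 0.05. Of 14667 genes 8.83% were Up and 4.7% were Down by their sums. *Ghr* came nearest, with 150, 122 and 138 CPM in the adults and 131, 107 and 106 at P10. Its sum had a log2 fold change of 0.25 (SE 0.13, FDR 0.282), and it was called Up without Adult replicate 5 (0.33, FDR 0.160) or without P10 replicate 1 (0.35, FDR 0.0674). The sum of *Jak2* had 94.6, 93.9 and 93.7 CPM in the adults and 105, 108 and 103 at P10, narrow groups that did not overlap. Its log2 fold change was -0.16 (SE 0.12, FDR 0.481), and with column sums as library sizes it was Down (-0.26, FDR 0.150). For *Tph1* the sum gave 0.19 (SE 0.14, FDR 0.482), with called ACS in both directions, and for *Prlr* it gave 0.082 (SE 0.13, FDR 0.774). The sums of the other 5 genes lay between -0.35 for *Stat5b* and 0.19 for *Socs2*.

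Within a gene, the share of its integrations that fell in its TSS ACS needs no scaling between libraries. At *Tph1* this share was 35.1%, 27.7% and 27.8% in the adults and 18.7%, 20.1% and 18.0% at P10. The means were 30.2% ± 4.27 (SD, n = 3) and 18.9% ± 1.04 (SD, n = 3), a difference of 11.2 percentage points. An exact two-sided permutation test gave p = 0.1, the smallest that 3 against 3 libraries allow, and 0.35 after Benjamini-Hochberg adjustment over the 7 genes with a TSS ACS. At *Tph2* the share was lower in the adults, with 15% ± 0.62 against 17.7% ± 1.12 (SD, n = 3 each; exact permutation p = 0.1, adjusted 0.35). The adult and P10 shares were 53.7% and 57.1% at *Cish*, 57.4% and 58.8% at *Stat5a*, 21.2% and 22.1% at *Prlr*, 7.04% and 8.97% at *Stat5b*, and 28.0% and 28.0% at *Socs2*. For these 5 genes the libraries of the groups overlapped. The *Stat5b* share holds for the gene start listed on Rn5.

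**Figure D4:**
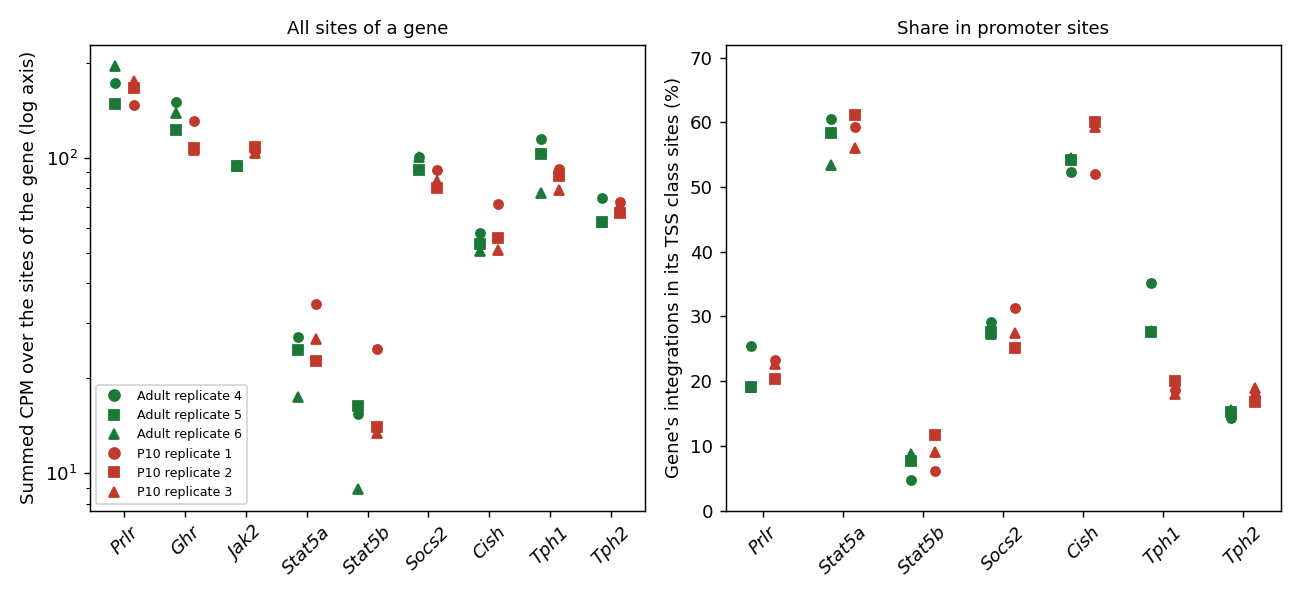
Left, CPM summed over all ACS of each gene (log axis); right, percent of a gene's integrations in its TSS ACS for the 7 genes that have one; each point is a library, green for adult and red for P10. The *Tph1* share is above 27% in all adult libraries and at most 20.1% at P10, and 0 of the 9 sums were called.

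The other genes of the pathway were taken from lists. Over 567 ACS of 73 genes 71 (12.5%) were Up and 41 (7.23%) Down, near the shares of all ACS (12.3% and 6.63%). Serotonin synthesis, packaging, uptake and breakdown had 17 of 77 ACS Up (22.1%) and 4 Down, with a median log2 fold change of 0.10. In that list *Qdpr*, which regenerates the cofactor of TPH1, had 5 of 10 ACS Up and 0 Down. Its ACS 208.0 kb from the start had 12.1, 17.5 and 16.2 CPM in the adults and 3.63, 3.07 and 4.97 at P10 (log2 fold change 1.96, SE 0.25, FDR 9.50e-06). *Slc18a1*, a vesicular monoamine transporter, had 3 of 8 ACS Up and 1 Down, and the ACS 36.7 kb from its start had 15.5, 14.1 and 12.1 CPM against 3.86, 3.92 and 4.81 (1.73, SE 0.24, FDR 2.52e-05). The 118 ACS of serotonin receptor genes had 11 Up and 11 Down, and *Htr1f* had 3 of 20 Up.

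The counts of signalling genes stand beside shares of 12.3% Up and 6.63% Down over all ACS. Among these genes, the 3 other JAK kinases had 3 of 18 ACS Up and 0 Down, all 3 inside *Jak1*. These 3 calls were lost without P10 replicate 2 (FDR 0.249 to 0.412), 2 of them also without Adult replicate 4 (FDR 0.293 and 0.440) or P10 replicate 3 (FDR 0.226 and 0.240), and the remaining one without Adult replicate 6 (FDR 0.252). Other STAT genes had 3 of 30 ACS Up and 2 Down. Other SOCS inhibitors had 3 of 53 Up and 5 Down, and the 6 calls at *Socs6* were split evenly between the directions. Adaptors and other regulators had 18 of 142 Up and 11 Down. There *Irs2*, the insulin receptor substrate, had 8 of 32 ACS Up and 2 Down, and the ACS 161.8 kb from its start rose by 1.63 (SE 0.21, FDR 1.23e-05).

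Ligands and outputs of growth hormone had 3 of 27 ACS Up and 0 Down, and *Gh1* and 2 placental lactogen genes had no ACS. Genes known as prolactin targets in beta cells had 13 of 102 Up (12.7%) and 8 Down (7.84%), near the shares of all ACS (12.3% and 6.63%). *Bcl6*, a repressor that prolactin induces, had 3 of 8 Up and 0 Down, and its ACS 70.5 kb upstream had 30.2, 30.7 and 28.9 CPM in the adults and 8.69, 11.1 and 12.4 at P10 (1.48, SE 0.19, FDR 1.30e-05). *Tnfrsf11b*, the decoy receptor osteoprotegerin, had 3 of 8 Up and 1 Down.

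Beta cell markers were accessible in each library, with sums of 981 to 1155 CPM in the adults and 931 to 1232 at P10 over 7 of 9 genes (*Mafa* and *G6pc2* had no ACS). At their TSS ACS P10 replicate 1 stood high, with 339 CPM against 208 and 226 in the other P10 libraries. The adults had 163 to 225 CPM there, and of these 6 TSS ACS 2 were Down and 0 Up. The sums were higher in the adults without overlap for alpha cell markers (858 to 987 CPM in the adults, 696 to 790 at P10, 5 of 5 genes), duct markers (208 to 243 and 175 to 194, 3 of 5 genes) and endothelial markers (397 to 481 and 372 to 380, 6 of 6 genes). Acinar markers summed to 373 to 425 and 367 to 381 over 8 of 9 genes. At TSS ACS alone, duct markers were lower in the adults without overlap (17.5 to 20.2 CPM, 24.7 to 34.4 at P10, 2 of 3 ACS Down). So were acinar markers (4.34 to 6.52 and 7.08 to 8.49, 2 of 9 genes, 0 of 2 ACS Down). Delta cell markers were lower too (20.3 to 25.4 and 30.4 to 38.7, 3 of 4 ACS Down). Of all TSS ACS 7.87% were Down. The TSS sums of alpha cell markers overlapped (66.9 to 86.7 and 74.0 to 87.0, 0 of 5 ACS Down). Those of endothelial markers overlapped as well (23.5 to 31.7 and 28.9 to 35.5, 2 of 6 genes, 0 of 2 ACS Up or Down). Mesenchymal markers summed to 411 to 472 and 402 to 414 over 6 of 7 genes, and delta cell markers over all classes to 159 to 198 and 178 to 192 over 3 of 3. Macrophage markers (20.5 to 29.1 and 23.0 to 32.5, 3 of 5 genes) and Schwann cell markers had no TSS ACS. Schwann cell sums were lower in the adults without overlap (7.61 to 9.06 and 10.1 to 12.3, 2 of 4 genes). The part of these cells in the results above was not tested.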

How the data were processed

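ATAC-seq was analysed in islets of 3 adult rats and 3 P10 litters, 1 library each. Per the labels and the study's methods, the authors aligned reads to Rn5 with BWA 0.7.13, removed mitochondrial and low-quality reads, called peaks with MACS2 2.1.1 on the concatenated libraries of each age, joined them, and deposited counts of Tn5 integrations per ACS, with the nearest gene. Columns of the authors' own test (log2 fold change, CPM, F, p-value, FDR) were not used. Of 101941 entries 101603 were distinct ACS. The replicates are separate rats or litters. Removal of PCR duplicates is not given in the sources used here, so errors cover the counts as they stand.

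Counts were fitted here with edgeR 4.0.16 (glmQLFit, glmQLFTest) in R 4.3.3, with TMM scaling, age as the only term, no filter on low counts and Benjamini-Hochberg adjustment over all distinct ACS; calls needed p under 0.05 and FDR under 0.2. The SE is model-based. Scripts were tested on simulated data. Gene sums were fitted in the same way, and TSS shares were compared by exact permutation over samples. Alternatives were RLE factors, column sums, the total reads per library, filterByExpr, DESeq2 1.42.0, limma 3.58.1 voom, FDR under 0.05 and leaving out each library. Named were every called ACS, every TSS ACS and the ACS with the most counts per gene; of other pathway genes, those with at least 2 called ACS, at most 3 ACS per list, with 1 gene not reported here. The genes, lists and markers were chosen with earlier results of these data known.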

Additional observations from a re-analysis of the deposited data

How the results depend on the processing

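No paired analysis was possible. The adult libraries came from 3 rats and the P10 libraries from 3 litters, and neither the labels nor the study's methods link a rat to a litter. Of 347 comparisons of 29 named ACS with an alternative, 282 kept direction and side of the limits. The 9 Up calls stayed 9 with RLE factors, column sums, the count filter, DESeq2 and limma voom, were 7 at FDR under 0.05 and 0 with total reads, and numbered 6 to 10 with a library left out. The 8 Down calls were 12 with column sums, 5 with DESeq2, 0 at FDR under 0.05, 61 with total reads and 3 to 9 with a library left out. Over all ACS, the 12504 Up calls were 7177 at FDR under 0.05, 1062 with total reads and 7973 to 13232 with a library left out, and the 6738 Down calls were 1945, 61663 and 3285 to 7215, and 10732 with column sums. Total reads moved the median of all ACS to -0.84, so with that scaling values hold only relative to this shift, and the cause of the shift was not tested. By gene sums 0 to 1 genes were Up with a library left out, and 1 (column sums) or 9 (total reads) were Down.

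The log2 fold change changed sign with total reads at the *Prlr* start (-0.80), *Prlr* 47.9 kb (-0.30), *Ghr* 94.9 kb (-0.63), *Stat5b* 8.6 kb (-0.78) and *Socs2* at 216 bp (-0.74), 454 bp (-0.45) and 1.3 kb (-0.62), and with column sums at the *Prlr* start (-0.076) and *Stat5b* 8.6 kb (-0.0022). With a library left out it lay between -0.13 and 0.18 at the *Prlr* start, -0.17 and 0.42 at *Stat5b* 8.6 kb, -0.028 and 0.31 at *Socs2* 216 bp, and -0.17 and 0.019 at *Tph1* 31.8 kb. In the same way, the difference in TSS share lay between -3.03 and 0.19 points for *Prlr*, -2.98 and 0.62 for *Stat5a*, -1.40 and 1.74 for *Socs2* and 8.78 and 12.5 for *Tph1*. The share took the same values with promoters defined as ACS over the start or within 1000 bp. The Down calls of *Jak2* at 15.9 kb and *Prlr* at 523.9 kb rest on mean counts of 13.5 and 10 per library.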
